A study of Saccharomyces cerevisiae with 5 samples.

Results

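The genes described here encode the proteins of the large cytosolic ribosomal subunit of the budding yeast Saccharomyces cerevisiae. They were taken by name: every array spot whose platform symbol was RPL followed by a number and an optional A or B, together with the stalk genes RPP0, RPP1A, RPP1B, RPP2A and RPP2B. This gave 80 genes. The platform of replicates 2 to 5 held 78 of them among 5539 genes, each on 2 spots. Replicate 1, on another platform, held all 80 members among 5583 genes, 18 of the members on 2 spots and 62 on 1. RPL29 and RPL36B were measured on replicate 1 only.

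The series had 1 group of 5 arrays hybridised in 2 channels: cDNA of RNA recovered with zz-tagged Yra1 was labelled as channel 1 and cDNA of RNA recovered with zz-tagged Mex67 as channel 2. The zz tag is an IgG-binding module that allows a protein to be pulled down from an extract. The labels give no strain, growth condition, promoter of the tagged genes or dye, and no array was labelled as an input or mock precipitate. They also do not say that the arrays came from separate cultures, so a p-value here reflects the scatter of these arrays alone, and that scatter may be technical. Replicates 3 and 5 share a code in their titles whose meaning is not given.

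Large-subunit proteins surround the ribosomal RNA that joins amino acids into protein. They carry the stalks that receive translation factors, the tunnel through which the new chain leaves, and the contacts with the small subunit. Most are encoded in yeast by a pair of genes, marked A and B, whose products are identical or nearly so, and many of these genes carry an intron, which is rare among yeast genes. Their transcripts are among the most abundant in growing yeast. All must leave the nucleus through the pore. Mex67 is the main export receptor for mRNA, and Yra1 is a nuclear RNA-binding adaptor that works with it. The comparison asks which of these transcripts were recovered unequally with the adaptor and the receptor.

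Each value below is a log2 ratio between the channels, with the median of the array's spots set to 0. Which channel was divided by which is not given. "Lower" and "higher" therefore describe the deposited ratio and do not say which precipitate held more of a transcript. The arrays' deposited medians lay between -2.81 and 1.96 before centring, and replicate 2 was the only one of replicates 2 to 5 with a median above 0. It was kept as deposited, because the labels give 1 orientation for all arrays, and the main results are also given with its sign turned.

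The large-subunit genes lay below the other genes on each of replicates 2 to 5. From replicate 2 to replicate 5 their medians were -0.26, -0.38, -0.56 and -1.03. Measured from the median of all other genes, the shift was -0.26, -0.40, -0.59 and -1.03 in that order, a mean of -0.57 ± 0.34 (SD, n = 4), or a 1.49-fold difference of medians. On replicate 1 the shift was -0.0042. With the sign of replicate 2 turned, that array's shift lay above 0 and the mean was -0.44 ± 0.54 (SD, n = 4). As deposited, the 4 arrays had 1 direction with sizes that differed widely, and the array of the other platform did not show the shift. Because each value is a ratio between precipitates from many cells, it gives neither the amount of a transcript nor its variation between cells.

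The genes did not move as a block. On replicate 5, 66 of 78 members lay below the array median and 27 lay in the lowest 10% of all genes, with 2 in the highest 10%. On replicate 4, 33 members lay in the lowest 10% and 3 in the highest, and the spread of the members was wider than that of other genes, with an interquartile range of 1.83 against 1.02. Replicate 2 had 9 members in the lowest 10% and 10 in the highest. On replicate 3 the members were tighter than other genes, with an interquartile range of 0.76 against 0.91, and 58 of 78 lay below the median. On replicate 1, 44 of 80 lay below it, with 15 in the lowest and 7 in the highest 10%.

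**Figure D1:**
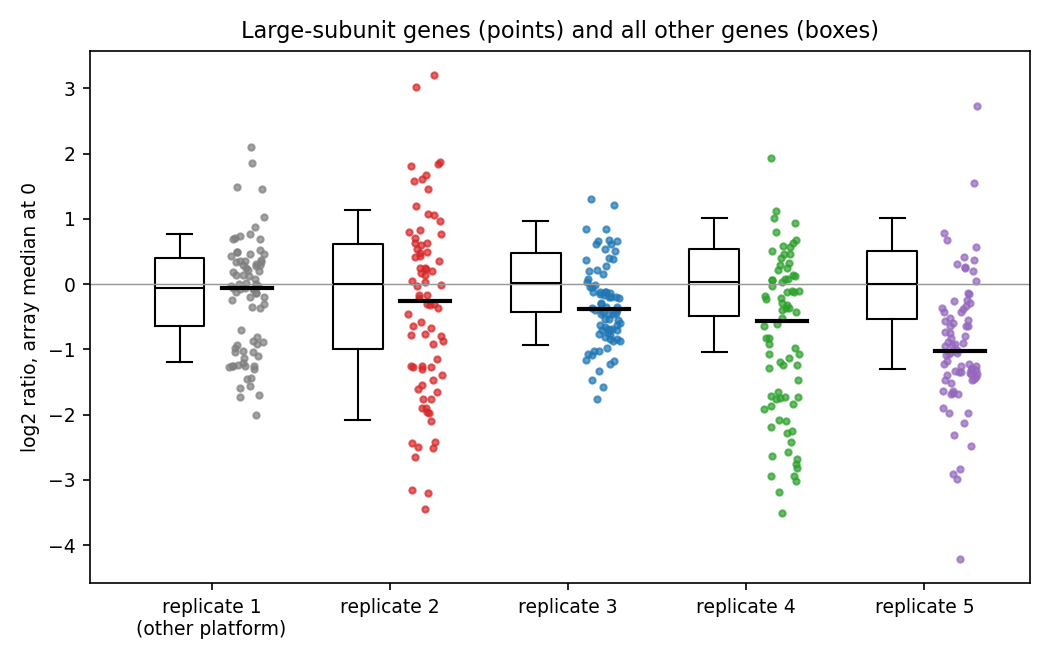
Log2 ratio (vertical axis, array median at 0) of the large-subunit genes (points, bar at their median) and of all other genes (box from the lower to the upper quartile, whiskers at the 10th and 90th percentiles) on each of 5 arrays. The members' median lies below 0 by 0.26 to 1.03 on replicates 2 to 5 and near 0 on replicate 1.

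Over replicates 2 to 5, the mean lay below 0 for 62 members (background 51.3%) and above 0 for 16 (background 48.7%), where the background is the share among all 5539 genes. The median of the members' means was -0.67 against -0.015 for all genes. A mean below -1 was found for 22 members (background 6.39%), and a mean above 1 for 0 members (background 1.75%). Below 0 on 4 of 4 arrays were 26 members (background 7.13%), and above 0 on all 4 were 3 members (background 7.11%). On replicate 1, 12 of those 26 were again below 0, or 46.2%, against 46.6% of all genes below 0 on the 4 arrays. Counting both directions, 42 of 78 members had the sign of their mean on replicate 1, or 53.8% (background 49.1%). The array of the other platform thus did not repeat the direction of the members below 0 more often than that of other genes.

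No member passed the test over all genes. By limma, fitted to replicates 2 to 5 with Benjamini-Hochberg adjustment over 5539 genes, 0 members had an adjusted p under 0.05 (background 0%), with 0.834 as the smallest adjusted value. Without adjustment, 22 members were lower at p under 0.05 (background 3.99%) and 0 were higher (background 1.43%). With replicate 5 left out the 22 became 14 (background then 3.68%), and with the sign of replicate 2 turned they became 12 (background then 2.29%). The 95% interval of a member's mean typically reached 0.99 log2 units to each side.

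Members also differed in how far they could be repeated. The SD of a member over the 4 arrays ran from 0.23 for RPL17B to 2.51 for RPL23B, with a median of 0.91, against 0.77 for all genes. Across members the Pearson correlation between arrays ran from -0.01 to 0.27 among replicates 2 to 5, highest between replicates 3 and 5, and across the other genes from -0.04 to 0.12. With replicate 1 the members' correlations ran from -0.04 to 0.18. These correlations are across 78 genes of the same arrays, which are not independent replicates, and they describe a weak likeness in the order of the genes.

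**Figure D2:**
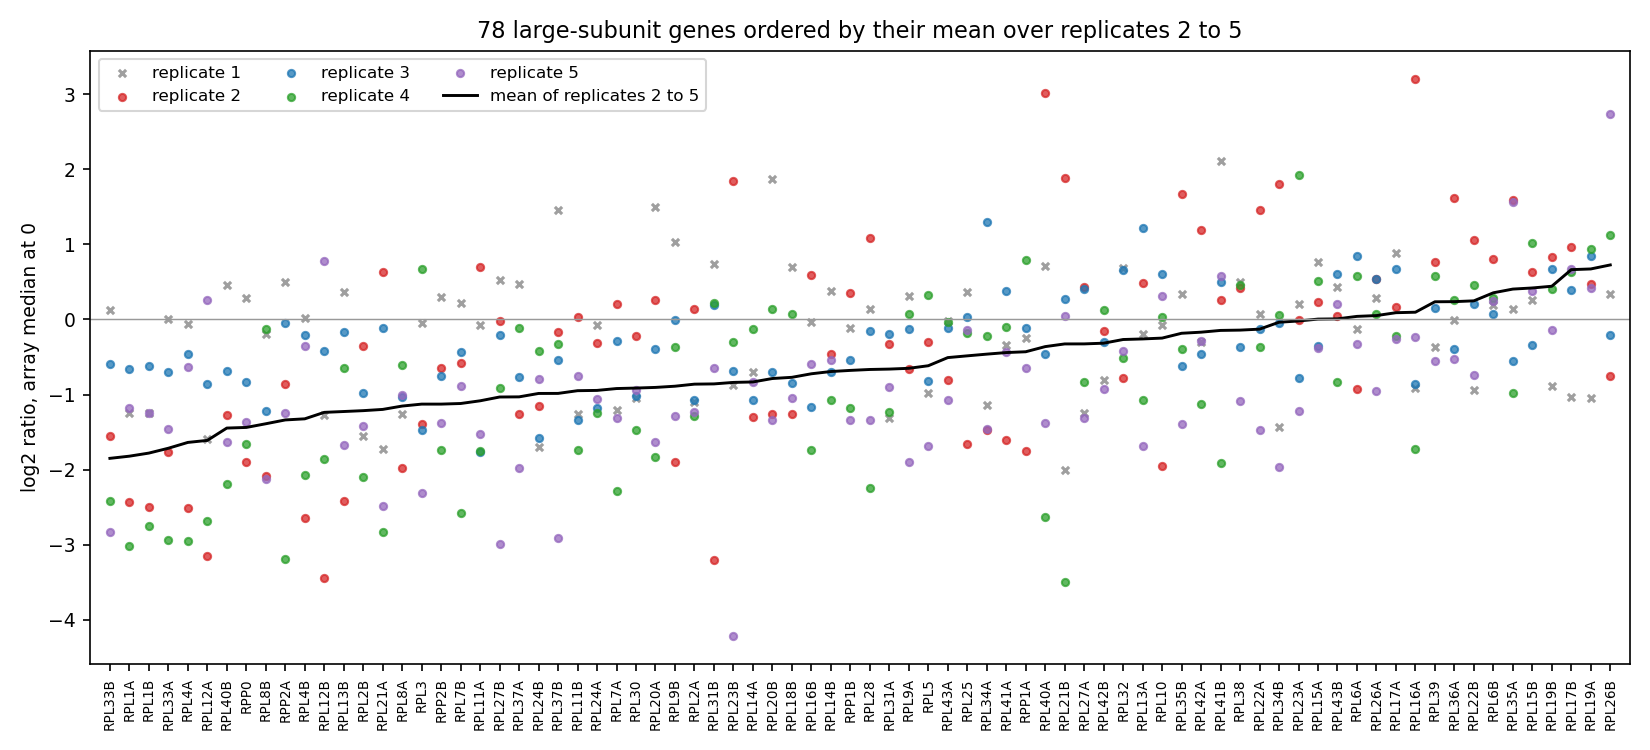
The 78 genes measured on replicates 2 to 5, ordered by their mean (line), with the log2 ratio on each array (circles for replicates 2 to 5, crosses for replicate 1; vertical axis, array median at 0). The means run from -1.85 to 0.73, and for most genes the single arrays lie widely around them.

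Some deposited values may not belong to the spot that carries them. Near the edges of a print block, adjoining spots on replicates 2 to 5 often hold 1 identical value, which was counted here as shared. A gene's value on an array was counted as shared if any of its spots held such a value, so some were shared only in part. A shared value was found on 1 or more arrays for 28 of the 78 members, against 50.3% of all genes. By this count 46 of the members' 312 values were shared in full or in part. Members with no shared value lay lower than those with one, with medians of their means at -0.88 for 50 genes and -0.14 for 28. Among all genes the same medians were -0.027 and -0.0049. Of the 22 lower members at an unadjusted p under 0.05, 20 held no shared value, and among all genes 151 of 221 such lower genes held none. With every shared value left out the shift of the members was -0.58. The median of the surrounding spots at the members' positions was close to 0, from -0.041 to 0.065 on the 4 arrays, and with this local median subtracted spot by spot the shift was -0.43.

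The stalk is the flexible arm that recruits and activates elongation factors. RPP0 encodes its RNA-bound base, and the RPP1 and RPP2 genes encode the small acidic proteins that hang from it. All 5 genes had means below 0 (background 51.3%), with a median of -1.13, and none of their values was shared with a neighbouring spot. Their median on an array was -0.86, -0.54, -1.65 and -1.34 on replicates 2 to 5, but 0.29 on replicate 1. Against the other members the difference was -0.62 ± 0.46 (SD, n = 4), and -0.27 with the sign of replicate 2 turned.

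RPP0 read -1.90, -0.84, -1.65 and -1.36 on replicates 2 to 5 and 0.29 on replicate 1. It lay below 0 on all 4 arrays of the test, with a mean of -1.44 ± 0.45 (SD, n = 4) and the smallest unadjusted p of the members. Its mean was -0.49 with replicate 2 turned. RPP2A read -0.86, -0.046, -3.19 and -1.25, and RPP2B read -0.65, -0.75, -1.74 and -1.38. Both were lowest on replicate 4, and their means were -1.34 ± 1.33 and -1.13 ± 0.52 (SD, n = 4). The 2 RPP1 genes were less uniform. RPP1A read -1.75, -0.11, 0.79 and -0.65, a mean of -0.43 ± 1.06, and RPP1B read 0.35, -0.54, -1.18 and -1.34, a mean of -0.68 ± 0.77. Their signs opposed each other on replicates 2 and 4.

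The stalk stands on the protein of the RPL12 genes. RPL12A read -3.15, -0.86, -2.68 and 0.26 on replicates 2 to 5 and -1.59 on replicate 1. RPL12B read -3.44, -0.42, -1.86 and 0.78, and -1.27 on replicate 1. Both copies were thus below 0 on 4 of 5 arrays and above it on replicate 5, the array with the strongest shift of the members as a whole. Their means were -1.61 ± 1.59 and -1.24 ± 1.83 (SD, n = 4). With replicate 2 turned they were at -0.035 and 0.49.

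RPL1A and RPL1B encode the protein of the other mobile stalk, which helps move spent tRNA out of the ribosome. RPL1A read -2.43, -0.66, -3.02 and -1.17 on replicates 2 to 5 and -1.25 on replicate 1. RPL1B read -2.50, -0.62, -2.75 and -1.25, and -1.24 on replicate 1. The pair was below 0 on 5 of 5 arrays, with means of -1.82 ± 1.09 and -1.78 ± 1.01 (SD, n = 4). Neither copy held a shared value, but the spots around RPL1A on replicate 2 were themselves low, with a local median of -2.34, and those around RPL1B were at -0.65. With the local median removed on every array the means were -1.32 and -1.90. With replicate 2 turned the means were -0.60 and -0.53.

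In the 5S RNP, the particle of 5S rRNA with its proteins that joins the subunit as a unit, RPL11A had a mean of -1.08 ± 1.20 (SD, n = 4), RPL11B of -0.95 ± 0.77 and RPL5 of -0.62 ± 0.85. The 3 genes had a median of 0.030 on replicate 2 and of -1.33 to -1.74 on replicates 3 to 5. On replicate 2 RPL5 and RPL11A held a shared value. RPL5 was highest on replicate 4, at 0.33, where its value was shared too.

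Proteins that reach towards the catalytic centre are encoded by RPL2A, RPL2B, RPL3 and RPL10. Their median lay below 0 on all 5 arrays, from -1.32 on replicate 5 to -0.58 on replicate 1. RPL2B read -0.36, -0.98, -2.10 and -1.42 on replicates 2 to 5 and -1.56 on replicate 1, all below 0, with a mean of -1.21 ± 0.73 (SD, n = 4). RPL2A had a mean of -0.86 ± 0.68. RPL3 had a mean of -1.13 ± 1.27, with a shared value on replicates 2 and 4. RPL10, whose protein joins the subunit only in the cytoplasm, was the least displaced by its mean, at -0.25 ± 1.16. It read -1.95, 0.61, 0.039 and 0.31 on replicates 2 to 5, so its mean below 0 rested on replicate 2. The spots around it on that array had a local median of -2.11. Its mean was 0.73 with replicate 2 turned and -0.032 with the local median removed. It held a shared value on replicates 3 and 5.

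The genes of the polypeptide exit tunnel and the ring around its opening had the highest median of means among the groups by role, although on single arrays others lay above them: the ubiquitin fusion genes on replicates 1 and 2, the stalk base on replicate 5 and the stalk on replicate 1. Of 14 genes 6 lay below 0 by their mean (background 51.3%) and 8 above (background 48.7%). Their median was 0.071, near the -0.015 of all genes. The 64 other members had a median of -0.78, and 56 of them had a mean below 0. The difference of medians between these groups was 0.62, 0.54, 0.78 and 0.91 on replicates 2 to 5, a mean of 0.71 ± 0.17 (SD, n = 4), and 0.14 on replicate 1. Leaving out shared values gave 0.69, turning replicate 2 gave 0.40 and removing the local median gave 0.39. Shared values were also more frequent in this group, 13 of 56 against 33 of 256. The 6 tunnel genes that held none had a median mean of -0.57, and the 8 that held one a median mean of 0.32. The part of shared values in this difference was not tested beyond these settings.

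Within the tunnel the values were far from uniform. RPL4A and RPL4B encode a protein whose loop narrows the tunnel, and they were among the lowest members. RPL4A read -2.51, -0.46, -2.95 and -0.64 on replicates 2 to 5 and -0.062 on replicate 1, with a mean of -1.64 ± 1.27 (SD, n = 4), or -0.38 with replicate 2 turned. RPL4B had a mean of -1.32 ± 1.23, or 0.0020 with replicate 2 turned. The spots around RPL4B on that array had a local median of -1.99. At the other end, RPL19A read 0.47, 0.85, 0.94 and 0.42, and RPL17B read 0.96, 0.39, 0.63 and 0.67. These genes, for proteins at the tunnel's opening, were above 0 on 4 of 4 arrays. Their means were 0.67 ± 0.26 and 0.66 ± 0.23, yet on replicate 1 they were at -1.05 and -1.03. RPL19B and RPL17A had means of 0.44 ± 0.43 and 0.090 ± 0.43. RPL17A held a shared value on every one of the 4 arrays, RPL17B on 2, and RPL19A and RPL19B on 1 each.

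RPL26B had the highest mean of all members, 0.73 ± 1.56 (SD, n = 4), but read -0.76, -0.20, 1.13 and 2.74 on replicates 2 to 5. Its copy RPL26A read 0.54, 0.54, 0.075 and -0.95, so that the 2 genes differed by 3.69 on replicate 5. RPL35A, at a mean of 0.40 ± 1.36, read 1.56 on replicate 5, where it held a shared value, and its copy RPL35B read -1.39 there. These higher means do not hold up against the spread between arrays. With the local median removed RPL26B was at 0.69, and RPL43A was then the highest member at 1.10. Without that step the mean of RPL43A was -0.51. On replicate 5 the spots around RPL43A had a local median of -3.94.

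**Figure D3:**
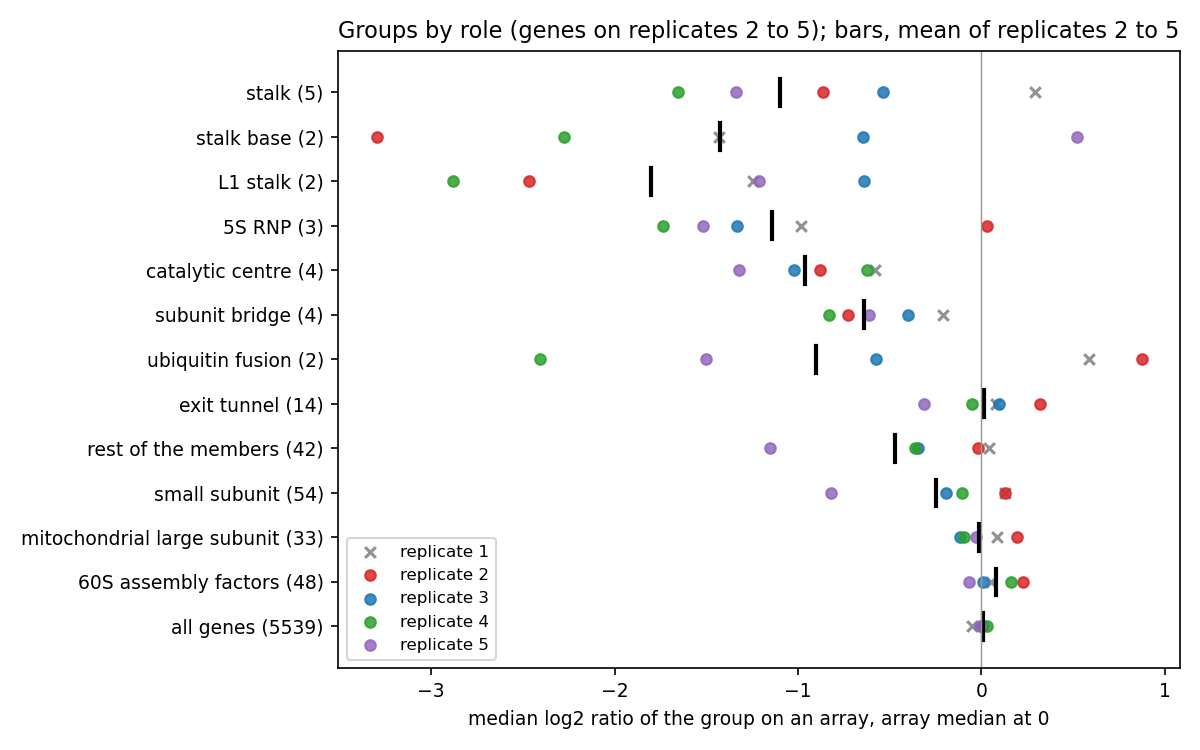
Median log2 ratio (horizontal axis, array median at 0) of each group by role on every array; circles are replicates 2 to 5, crosses replicate 1, bars the mean of replicates 2 to 5, and the number of genes is in brackets. The stalk, L1 stalk, catalytic centre and subunit bridge groups and the rest of the members lie below 0 on replicates 2 to 5. The exit tunnel group lies around 0.

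The 4 genes for bridges to the small subunit, RPL24A, RPL24B, RPL41A and RPL41B, all had means below 0 (background 51.3%), with a median of -0.69. RPL24A and RPL24B were below 0 on all 5 arrays. RPL41B read 0.25, 0.50, -1.92 and 0.57 on replicates 2 to 5, so its mean of -0.15 rested on replicate 4. It held a shared value on replicates 2, 3 and 5. With replicate 2 turned RPL24A was at -0.79, RPL24B at -0.41, RPL41A at 0.36 and RPL41B at -0.27. RPL40A and RPL40B encode a protein made as a fusion to ubiquitin. RPL40B read -1.27, -0.69, -2.19 and -1.63 on replicates 2 to 5 and 0.46 on replicate 1, a mean of -1.45 ± 0.63 (SD, n = 4). RPL40A followed it on replicates 3 to 5, at -0.46, -2.63 and -1.37, but read 3.02 on replicate 2, a shared value amid spots with a local median of 2.84. Its mean was -0.36 ± 2.42 with that value and -1.49 without shared values. With replicate 2 turned RPL40B was at -0.81 and RPL40A at -1.87.

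The other 42 members had 34 means below 0 (background 51.3%) and 8 above (background 48.7%), with a median of -0.66. RPL33B had the lowest mean of all members. It read -1.55, -0.59, -2.42 and -2.83 on replicates 2 to 5, a mean of -1.85 ± 0.99 (SD, n = 4), and 0.12 on replicate 1. RPL33A read -1.76, -0.70, -2.94 and -1.46, a mean of -1.71 ± 0.93, and 0.0048 on replicate 1. Its value on replicate 2 was shared in part, amid a local median of -1.54. Both copies were below 0 on all 4 arrays of the test and near 0 on the other platform. With replicate 2 turned the means were -1.08 for RPL33B and -0.83 for RPL33A. With the local median removed they were -1.31 and -1.18, and RPL21A was then the lowest member at -1.94. RPL8A and RPL8B were below 0 on all 5 arrays, with means of -1.15 ± 0.58 and -1.39 ± 0.94, or -0.17 and -0.34 with replicate 2 turned. RPL6B was the only member above 0 on all 5 arrays (background 3.29%), at 0.80, 0.076, 0.29 and 0.25 on replicates 2 to 5 and 0.19 on replicate 1, a mean of 0.36 ± 0.31, or -0.046 with replicate 2 turned. In all, 12 members were below 0 on 5 of 5 arrays (background 3.32%).

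RPL15A and RPL15B, whose protein is laid down early in assembly on the rRNA, had means of 0.0050 ± 0.44 and 0.42 ± 0.57 (SD, n = 4). RPL15B read 0.63, -0.34, 1.02 and 0.37 on replicates 2 to 5. With the local median removed it was at -0.21.

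Both copies of a pair can share array signal, because spots of near-identical sequence may bind the same cDNA, so the values of a pair are not separate measurements. The RPP1 and RPP2 genes were counted as pairs as well, although their A and B proteins differ more. With copies averaged to 45 values, 36 had a mean below 0 (51.3% among all single genes) and the shift was -0.57. Over 33 pairs the median difference between copies was 0.84, 0.30, 0.68 and 0.61 log2 units on replicates 2 to 5, a mean of 0.61 ± 0.23 (SD, n = 4). Duplicate spots of 1 gene differed by a median of 0.20, 0.099, 0.23 and 0.13, less than the copies on each of these arrays. Genes of successive, unlike pairs differed by 1.50, 0.69, 1.64 and 0.58. Copies were thus closer to each other than unlike members on replicates 2, 3 and 4, and not on replicate 5. On replicate 1 the 34 pairs differed by a median of 0.48 and unlike members by 1.03, while the duplicate spots of 18 genes differed by 0.69, more than the copies.

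The closeness varied between pairs. RPL1, RPL4 and RPL2 had the smallest mean differences over the 4 arrays, at 0.11, 0.39 and 0.40 log2 units. RPL23, RPL26 and RPL34 had the largest, at 1.79, 1.69 and 1.35. RPL23A read -0.010, -0.78, 1.93 and -1.22 on replicates 2 to 5, and RPL23B read 1.84, -0.69, -0.30 and -4.21, the lowest value of any member on any array. RPL34A read -1.47, 1.30, -0.22 and -1.46, and RPL34B read 1.80, -0.041, 0.060 and -1.97. RPL23A and RPL34B held a shared value on replicate 2. In these pairs the copies had the same sign on 1 or 2 of the 4 arrays.

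**Figure D4:**
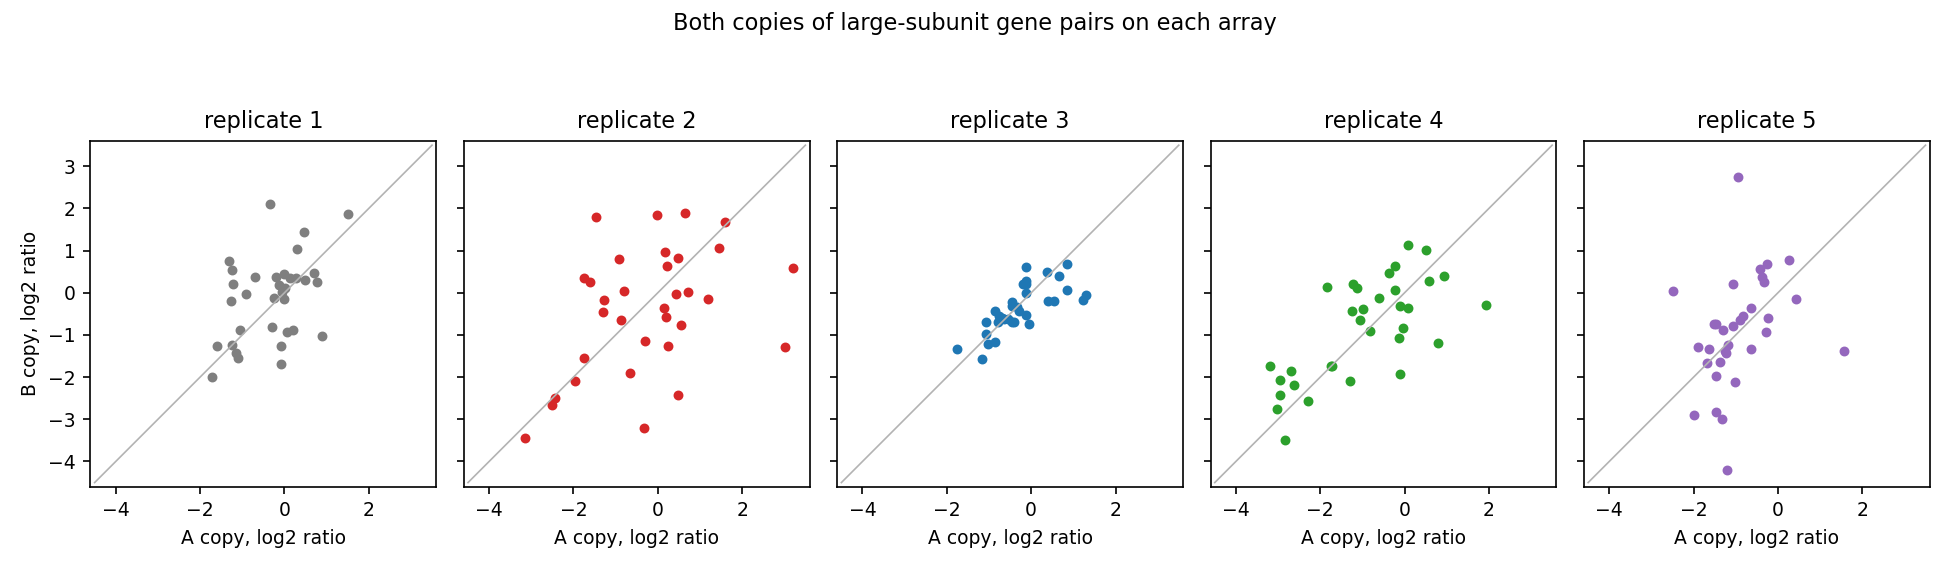
Log2 ratio of the B copy (vertical axis) against the A copy (horizontal axis) of large-subunit gene pairs on each array, with the line of equal values; each point is a pair, 34 on replicate 1 and 33 on the others. Points lie nearest the line on replicate 3, where the median difference was 0.30, and farthest on replicate 2, where it was 0.84.

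The members were next split by features that did not choose them. Introns are of interest because splicing and export of a transcript are coupled in the nucleus. The 27 members without an intron had a median mean of -0.99 and the 51 with one -0.48. The difference of medians was -1.57, -0.17, -0.21 and 0.035 on replicates 2 to 5 and -0.057 on replicate 1. It therefore rested on replicate 2: the mean was -0.48 ± 0.73 (SD, n = 4) with that array, -0.12 without it and 0.30 with its sign turned. Single-copy members (10 genes) lay 0.11 ± 0.43 above paired ones, and A copies lay -0.036 ± 0.30 from B copies, both smaller than the spread between arrays.

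The nearest set of like genes was the small subunit. Of its 54 genes on replicates 2 to 5, 38 lay below 0 by their mean (background 51.3%) and 16 above (background 48.7%). Their median mean was -0.57. Without adjustment 5 were lower (background 3.99%) and 1 higher (background 1.43%) at p under 0.05, and 0 passed after adjustment by limma. On every array the large-subunit median lay below the small-subunit median, by -0.38, -0.19, -0.45 and -0.21 on replicates 2 to 5 and by -0.19 on replicate 1. The mean difference was -0.31 ± 0.13 (SD, n = 4), a 1.24-fold difference. Removing the local median left -0.097 and turning replicate 2 left -0.12. The difference was described and not tested.

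Other lists from the making and working of the ribosome were read in the same way, with no test between them and the members. Among all genes 51.3% of the means lay below 0 and 48.7% above. The mitochondrial large-subunit genes (33 measured) had 13 means below 0 and 20 above, with a median of 0.030. The 60S assembly factors (48 measured) had 22 below and 26 above, with a median of 0.041. The chaperones dedicated to large-subunit proteins had 2 of 5 below 0, with a median of 0.17. Factors grouped under the transcription of ribosomal protein genes, with TOD6 among them, had 5 of 9 below 0, with a median of -0.28. The elongation factor genes TEF1, TEF2, EFT1, EFT2 and YEF3 had 5 of 5 below 0, with a median of -1.28, and 0.51 on replicate 1. TEF1 and TEF2, like EFT1 and EFT2, are near-identical copies whose spots can bind the same cDNA. By limma at p under 0.05 without adjustment, lower genes (background 3.99%) numbered 0 of the mitochondrial list and 2 of the assembly factors. They numbered 0 of the chaperones, 2 of the transcription list and 2 of the elongation factors. Higher genes (background 1.43%) numbered 1 of the mitochondrial list, 2 of the assembly factors and 0 of the other lists. In each list 0 genes passed after adjustment over all genes by limma.

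**Figure D5:**
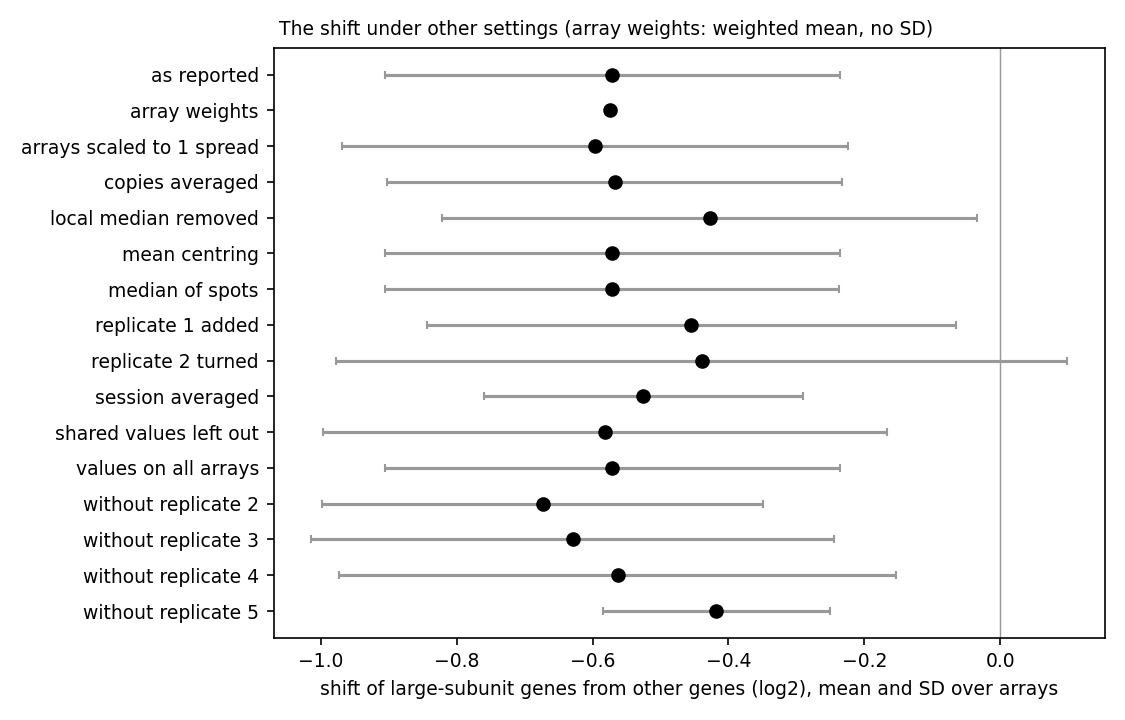
Shift of the large-subunit genes from all other genes (horizontal axis, log2; point, mean over arrays; bar, SD over arrays) as reported and under each other setting. All means lie between -0.67 and -0.42, and the SD reaches past 0 with the sign of replicate 2 turned. The setting named "session averaged" averages replicates 3 and 5, which share a title code of unknown meaning.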

How the data were processed

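The series matrix tables deposited by the authors hold log10 ratios per spot, a scale worked out from the values. The sources used here do not give the scanner, background correction, normalization or build. Spots were named through the platform annotation, with symbols brought up to date by RefSeq (assembly R64) for 5534 of 5539 genes. From the deposited log10 values log2 ratios were computed, centred on each array's median over all spots, and the spots of each gene were averaged. The tables held 1 row without a numeric ID, which was dropped, and 2 IDs that each filled 2 rows, which were joined. Rows and columns of spots were laid out from the order of the IDs.

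Replicates 2 to 5 were fitted with limma 3.58.1 (R 4.3.3; lmFit, eBayes, ratio against 0, two-sided, Benjamini-Hochberg over 5539 genes, threshold 0.05, values on at least 3 arrays). As a check, the fit was run on values shuffled within each array with known changes added. The check required only that the median estimate lie near the added change, so it does not show how often calls are right. Lists were described by counts and medians, with no test. A spot's value was called shared if identical to that of 1 of the adjacent spots in the same block of 20 by 20. A gene's value was called shared if that of any of its spots was. The local median was that of spots of other genes within 3 rows and columns. Intron classes came from general knowledge of these genes; a gene whose RefSeq span was not a multiple of 3 always fell among those with an intron.

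Members, lists and tests were chosen with earlier results of these data known. Named were the stalk genes, the 8 lowest and 6 highest means, members of 1 sign on all 5 arrays (up to 6 below and 4 above 0), the 3 closest and 3 farthest pairs, and other copies of members named by mean, 34 genes in all. RPL3, RPL5, RPL10, RPL11A, RPL11B and the bridge genes were named for their role after their values were seen. RPL21A and RPL43A were named for their means with the local median removed. Only ratios were used, so signal over background could not be assessed, and the number of arrays limits the precision. Alternatives changed the arrays used, the sign of replicate 2, position, shared values, the title code, centring, scaling, spot summary, weights and filter.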

Additional observations from a re-analysis of the deposited data

Results flagged for a closer look

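Among 37 sets of values over replicates 2 to 5 that were examined for 1 array apart from the rest, 1 stood out. RPL2A read 0.14 on replicate 2 and between -1.29 and -1.07 on the other 3 arrays, a gap larger than Dixon's limit for 4 values. Chance gives about 1 such gap in 20 sets. On replicate 1 the gene read -1.10, and its copy RPL2B read -0.36 on replicate 2.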

How the results depend on the processing

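The shift of the large-subunit genes stayed below 0 under all 15 alternatives run, and 0 members passed the adjusted threshold under any of the 14 that refitted the test. Not all of these could move the shift. Mean centring cannot change a difference of medians on an array. Requiring values on all arrays repeated the main values, and the median of spots left the members' values as they were. Leaving out each array in turn gave a shift from -0.67 to -0.42. Members with a mean below 0 then numbered from 55 to 66 (background from 49.6% to 53.6%). By limma at an unadjusted p under 0.05, from 14 to 25 members were lower (background from 3.27% to 3.88%). On the same terms 0 members were higher (background 1.43% in the main fit). Large minus small subunit ran from -0.35 to -0.26, copy differences from 0.53 to 0.71 and exit tunnel minus other members from 0.65 to 0.77. Stalk minus other members ran from -0.77 to -0.42, and genes without minus with an intron from -0.65 to -0.12. With replicate 2 turned there were 12 lower members (background then 2.29%), large minus small subunit was -0.12, the tunnel difference 0.40 and the intron difference 0.30. With the local median removed large minus small subunit was -0.097 and the tunnel difference 0.39. Unadjusted, 1 higher member then passed, as 1 did with array weights (background 1.43% in the main fit). The groups by role and by intron were varied after their values were seen.

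Of the 34 named genes, these changed sign. With replicate 2 turned: RPL12B 0.49, RPL15A -0.11, RPL26A -0.22, RPL34A 0.27, RPL35A -0.39, RPL4B 0.0020, RPL6B -0.046 and RPP1A 0.45. With the local median removed: RPL15A -0.31, RPL15B -0.21, RPL26A -0.31 and RPL35A -0.053. With replicates 3 and 5 averaged: RPL23A 0.31, RPL34B 0.29 and RPL35B 0.091. With mean centring: RPL23A 0.059 and RPL34B 0.043. RPL15A was at -0.058 with array weights and -0.024 with arrays scaled to 1 spread, and RPL23A at 0.024 with replicate 1 added. Leaving out 1 array at a time gave ranges that crossed 0 for RPL15A (-0.16 to 0.13), RPL17A (-0.10 to 0.21), RPL23A (-0.67 to 0.38), RPL23B (-1.73 to 0.29), RPL26A (-0.11 to 0.39), RPL34B (-0.65 to 0.61), RPL35B (-0.80 to 0.22), RPL40A (-1.49 to 0.39) and RPP1A (-0.84 to 0.011). The causes were not tested. Using the median of spots could not change a member's mean, because each member had 2 spots on replicates 2 to 5. Requiring values on all arrays gave the same values as the main fit. These settings therefore could not change a named gene's sign. The code in the titles could not be fitted as a random block, since only 1 code is carried by more than 1 array. No paired analysis was possible because the series has 1 group.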

Other observations

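Some large-subunit genes had high or low values on replicate 1, and they were chosen after their values were seen. RPL41B had the highest member value there, 2.11 while its copy RPL41A read -0.35. RPL20A and RPL20B were high together, at 1.50 and 1.86, while over replicates 2 to 5 their means were -0.90 and -0.79. RPL21A and RPL21B were low together on replicate 1, at -1.73 and -2.01, and again on replicate 4, at -2.82 and -3.50. On replicate 2 they were above 0, at 0.63 and 1.88. RPL29 and RPL36B, which replicates 2 to 5 did not measure, read -1.45 and -0.14.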
